A study of Mus musculus with 4 samples.

Results

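The myogenic regulatory factors are the 4 bHLH transcription factors of the MyoD family, Myf5, Myod1, Myog and Myf6. They were examined in satellite cells, the muscle stem cells that lie between a fibre and its basement membrane, of young and aged mice. Members were taken from the platform annotation as every probe set assigned to 1 of these genes and to no other. This gave 5 probe sets of the 45037 that are no controls, and 4 genes of 18193. Myf5, Myog and Myf6 had 1 probe set each and Myod1 had 2. All mice were C57BL/6J adults with no further allele, treatment or injury in the labels, and the young were 3 to 6 months and the aged 20 to 25 months old. Hindlimb satellite cells were taken as primary cells, sorted on the surface proteoglycan syndecan-4 and pooled. A pool held 6 to 8 mice in the sample text and 4 to 8 in the series text, and each of the 4 arrays carried 1 pool, 2 of each age. The series title concerns p38 signalling and self-renewal in aged muscle stem cells.

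MyoD-family proteins bind E-boxes in DNA as dimers with E proteins and switch on muscle genes. Myf5 and Myod1 act first and set the myoblast fate, Myog drives differentiation, and Myf6, also called MRF4, is the member that prevails in the mature fibre. Satellite cells at rest carry Myf5 transcripts, and Myod1 protein appears as they activate. Id proteins hold the family back by capturing its partners.

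The 4 genes did not share a direction. Myf6 was 15.2-fold lower in aged cells and Myog 3.34-fold lower, Myf5 was 5.88-fold higher, and Myod1 differed by 1.08-fold with overlapping ages. With limma and Benjamini-Hochberg adjustment over all genes, 0 of the 4 passed the threshold of 0.05, as did 0% of all genes. At an unadjusted p under 0.05, 3 of the 4 genes passed, against 9.04% of all genes. The same 3 had ages that did not overlap, as had 36.8% of all genes. The 4 genes and the gene lists below were chosen with earlier results of these data known. Their counts beside the shares of all genes are thus a description and no independent support. The folds take the deposited values as log2, and the base was not stated in the sources used here. In pooled cells, fewer cells of a type and less RNA per cell cannot be told apart.

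RefSeq promoter windows (GRCm38.p6) were matched for 2 of the 4 genes, Myog and Myf5, a late and an early factor that lay on opposite sides between the ages. The 250 bases before each start site are printed 5′ to 3′ on the gene's strand. The Myog window lies on the plus strand at chr1:134289754-134290003 and that of Myf5 on the minus strand at chr10:107486135-107486384. Capitals mark matches to the motifs named after them.
Myog: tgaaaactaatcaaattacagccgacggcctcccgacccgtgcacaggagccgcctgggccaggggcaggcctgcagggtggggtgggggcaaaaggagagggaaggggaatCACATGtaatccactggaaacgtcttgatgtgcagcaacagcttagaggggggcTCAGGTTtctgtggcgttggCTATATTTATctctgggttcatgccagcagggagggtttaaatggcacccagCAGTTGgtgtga
Myf5: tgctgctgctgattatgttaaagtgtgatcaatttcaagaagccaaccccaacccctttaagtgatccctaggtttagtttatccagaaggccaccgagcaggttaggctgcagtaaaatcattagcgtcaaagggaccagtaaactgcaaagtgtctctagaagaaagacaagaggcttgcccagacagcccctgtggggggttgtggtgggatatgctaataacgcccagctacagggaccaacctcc

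Both strands were searched. The Myog window held 2 E-boxes (CANNTG, the motif of the family itself), CACATG at 138 to 133 and CAGTTG at 12 to 7 bases before the start. At least 2 E-boxes stood in 31.8% of 32851 windows of this length, and at least 1 in 66.2%. It also held the MEF3 motif (TCAGGTT) at 84 to 78 bases, found in 3.49% of windows. A stretch that departs from the MEF2 consensus at 1 base, CTATATTTAT, lay at 64 to 55 bases, and 23.8% of windows held such a stretch. That looser search was added after the windows had been read. The full MEF2 consensus (2.92% of windows) and TATAAA (12.4%) were matched in neither window. None of these motifs was matched in the Myf5 window, and no matches overlapped one another. A match describes letters and not binding.

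Each value is relative to the median of its probe set over the 4 arrays. That median is 0 within 5e-07 in every probe set, so in each the middle pair of arrays stands at equal distances above and below 0. Differences between ages are untouched by this, but levels are lost. No gene can be called present or absent, levels of different genes cannot be ranked, and the labelled cell type could not be checked by the presence of its markers. The array medians lay within 0.122 of each other. Over all genes the pools of an age differed by a root mean square of 0.841 (young) and 0.911 (aged). Xist, the RNA of the inactive X chromosome in females, stood 6.16 ± 0.44 (log2, SE) higher in the aged pools. The sex of the mice is not given in the labels used here, and its part in the differences below was not tested.

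Myf5, the earliest factor of the family to appear in the embryo and the one transcribed in resting satellite cells, stood at -0.83 in young 1, -0.90 in young 2, 0.83 in aged 1 and 2.55 in aged 2 (log2 relative values). Both young pools were low and close together, and both aged pools were higher but differed from each other by 1.72. Its difference was 2.56 ± 0.63 (log2, SE of the limma fit, n = 2 pools per age; adjusted p = 0.288), the 59th highest of 18193 genes. Leaving out aged replicate 2 brought the difference to 1.69, and leaving out aged replicate 1 to 3.42.

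Myod1, the factor whose protein marks activated satellite cells and myoblasts, gave values near 0 on most arrays. Its probe set 1418420_at stood at 0.08 in young 1, 0.16 in young 2, -0.31 in aged 1 and -0.08 in aged 2. These values span a narrow range, with both aged pools slightly below both young pools. Probe set 1447675_x_at, whose ending marks probes that may also match other transcripts, stood at 0.20 in young 1, -0.20 in young 2, -0.27 in aged 1 and 1.36 in aged 2. Here aged 2 alone was high and the ages overlapped. The log2 difference between ages was -0.31 ± 0.39 for the first probe set and 0.54 ± 0.67 for the second, so the probe sets disagreed in sign and neither exceeded its standard error. As their mean, Myod1 differed by 0.12 ± 0.45 (limma adjusted p = 0.977), and by -0.35 without aged replicate 2. Neither a higher nor a lower Myod1 in aged cells was detectable at this number of arrays.

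Myog, the factor that opens terminal differentiation and whose promoter is printed above, stood at 0.28 in young 1, 2.18 in young 2, -0.74 in aged 1 and -0.28 in aged 2. Young 2 was high and lay 1.90 above young 1, a larger distance than the 1.02 between young 1 and aged 1. The difference of -1.74 ± 0.68 (limma adjusted p = 0.540) ranked 614th from the lowest gene. Leaving out young replicate 2 brought it to -0.79, and leaving out young replicate 1 brought it to -2.69. The unadjusted p of Myog stayed under 0.05 without young 1 and was above it without young 2, aged 1 or aged 2, with the probe set of largest SD, with a variance trend and with single probe sets as the unit.

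Myf6, the family member of mature fibres, showed the widest gap between ages of the 4 genes. It stood at 2.01 in young 1, 1.82 in young 2, -1.82 in aged 1 and -2.19 in aged 2. Pools of the same age lay within 0.361 of each other, and the ages were parted by 3.65 at their closest. Its difference of -3.92 ± 0.37 had the 9th smallest p of all genes (limma adjusted p = 0.0998) and was the 25th lowest. Leaving out 1 array moved it only between -4.10 and -3.74. With a variance trend in limma Myf6 passed the threshold (adjusted p = 0.00523), in a fit that called 221 genes where the fit without trend called 0. The trend is drawn on mean values, which for centred data are no expression levels.

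**Figure D1:**
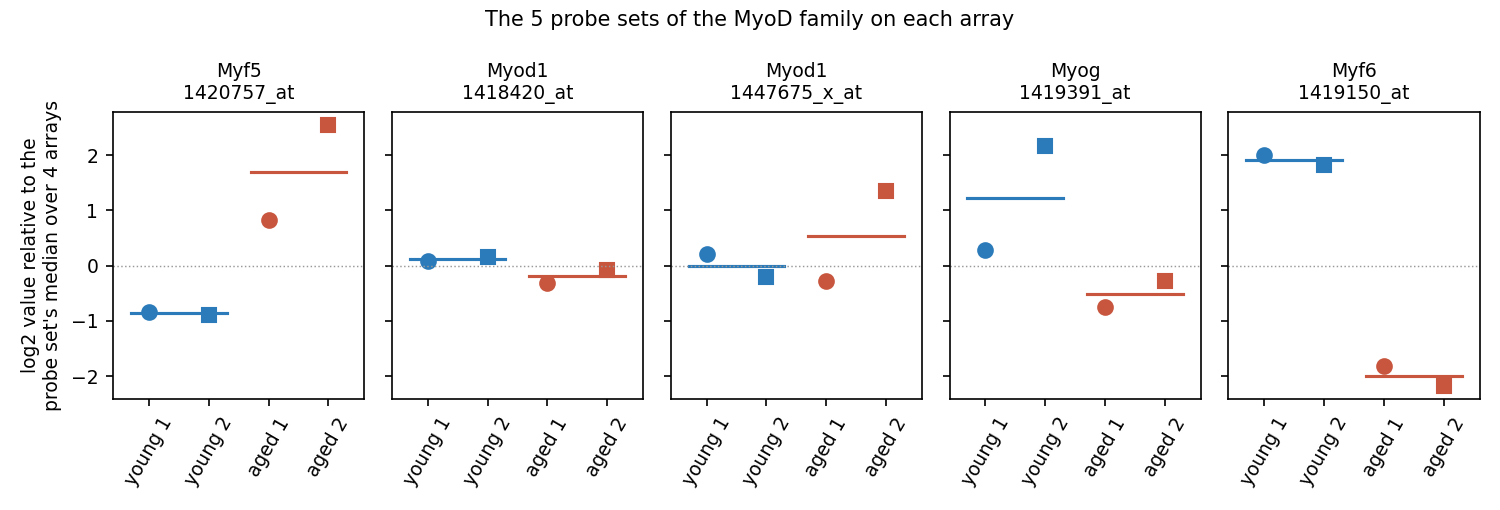
Log2 value relative to the probe set's median over 4 arrays (vertical axis) of the 5 probe sets on each array, with young pools in blue, aged pools in red, circles for pool 1, squares for pool 2 and lines for group means. Myf6 stands at 2.01 and 1.82 in the young and -1.82 and -2.19 in the aged pools, Myf5 lies the other way round, and the 2 Myod1 probe sets differ in sign.

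**Figure D2:**
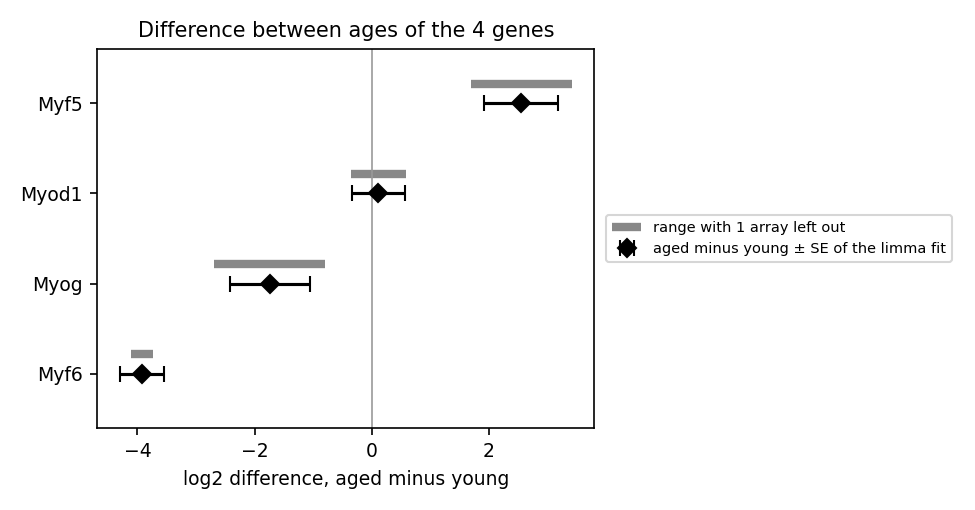
Log2 difference, aged minus young, of each gene (diamonds, with the SE of the limma fit as bars, n = 2 pools per age), with the range of the difference when 1 array is left out as a grey bar. The Myod1 range crosses 0 (-0.35 to 0.58), Myog runs from -2.69 to -0.79, and Myf6 stays between -4.10 and -3.74.

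The family's early factors were then set against its late ones, as relative values within each array. The mean of Myf5 and Myod1 was -0.34 in young 1, -0.46 in young 2, 0.27 in aged 1 and 1.60 in aged 2. The mean of Myog and Myf6 was 1.15 in young 1, 2.00 in young 2, -1.28 in aged 1 and -1.23 in aged 2. The late mean thus separated the ages with little spread among the aged pools, while the early mean separated them mainly through aged 2. That small spread came from opposite gaps, as aged 2 minus aged 1 was 0.47 for Myog and -0.36 for Myf6. Early minus late was -1.49 and -2.46 in young 1 and young 2 and 1.56 and 2.83 in aged 1 and aged 2. Early minus late was thus lower in both young pools than in both aged pools. Its sign has no meaning of its own, as each value is relative to the genes' own medians over these arrays. The difference between ages was 4.17 on the log2 scale, with a spread within ages of 0.800 (pooled SD). It was 3.53 to 4.80 with 1 array left out and 3.44 when medians over probe sets were used. No p is given, because the members were chosen with earlier results known.

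**Figure D3:**
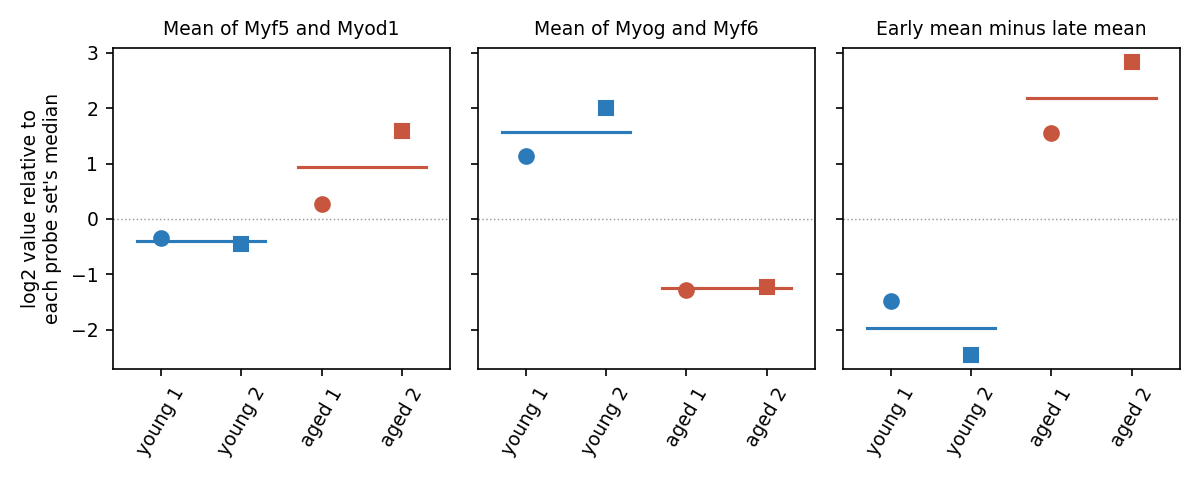
Mean relative log2 value of Myf5 and Myod1, of Myog and Myf6, and the first minus the second (vertical axis), on each array, with young pools in blue, aged pools in red and lines for group means. Early minus late is -1.49 and -2.46 in the young pools and 1.56 and 2.83 in the aged pools.

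Single pairs show which genes made up that difference. Of the 6 pairs, Myf5 minus Myf6 differed most between the ages, from -2.84 and -2.72 in young 1 and young 2 to 2.65 and 4.74 in aged 1 and aged 2, a difference of 6.48. Myod1 minus Myf6 differed by 4.04 and Myf5 minus Myog by 4.29. Myod1 minus Myog differed by 1.85, from -0.14 and -2.20 in the young to 0.46 and 0.92 in the aged pools. That last pair was close in young 1 and aged 1, so the early and late factors did not part equally. Within the early side, Myf5 minus Myod1 differed by 2.44. Within the late side, Myog minus Myf6 differed by 2.19, since Myf6 was lower in aged cells by the larger amount.

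Myf5 and Myf6 are neighbours on chromosome 10 with no other protein-coding gene between them in the reference, yet they stood at opposite ends of the distribution. The 3 nearest measured protein-coding genes on the Myf5 side differed little. Lin7a, a scaffold protein of cell junctions, stood at -0.00058 ± 0.36, Ppfia2, a liprin scaffold, at -0.05 ± 0.41 and Ccdc59 at -0.24 ± 0.35. On the Myf6 side the nearest measured genes were Ppp1r12a, a myosin phosphatase subunit, at 0.82 ± 0.40 and Pawr, a regulator of apoptosis, at -1.25 ± 0.45, followed by the synaptic vesicle protein Syt1 at 0.26 ± 0.36. Their limma adjusted p-values ran from 0.488 to 1, and no flanking gene reached the size of Myf5 or Myf6.

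**Figure D4:**
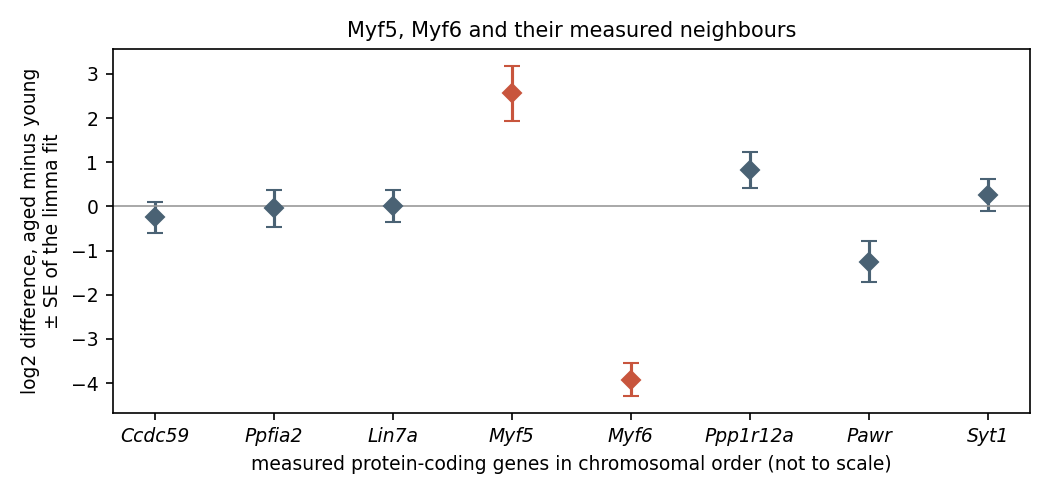
Log2 difference, aged minus young, with the SE of the limma fit (vertical axis), of Myf5 and Myf6 (red) and the 3 nearest measured protein-coding genes on each side (grey), in chromosomal order and not to scale. Myf5 stands at 2.56 and Myf6 at -3.92, and the neighbours lie between -1.25 and 0.82.

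The E proteins, which pair with the MyoD family to bind E-boxes such as those of the Myog window, gave differences within their errors. Tcf12 (HEB) stood at -0.45 ± 0.59, Tcf3, which encodes E12 and E47, at -0.09 ± 0.39 and Tcf4 at -0.02 ± 0.38. Their probe sets moved both ways in each gene, and 0 of 3 passed an unadjusted p of 0.05, against 9.04% of all genes. Each of the 3 genes changed sign when 1 array was left out. Their median of -0.09 turned to 0.06 without young replicate 1.

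Of 20 Id proteins and other inhibitors of the family, 13 were higher and 7 lower in aged cells, where 53.8% of all genes were higher and 46.2% lower, and the median was 0.17 against 0.05 over all genes. With 1 array left out the median was 0.12 to 0.32, the latter without aged replicate 2. At an unadjusted p under 0.05, 1 was higher and 0 were lower, against 2.85% and 6.19% of all genes, and 0 passed after adjustment. The higher count was 0 without either young pool, and 2 higher and 1 lower passed without aged replicate 1. Ages did not overlap in 8 of the 20, a share close to the 36.8% of all genes. Id1, which captures E proteins, stood at -0.50 in young 1, -0.67 in young 2, 0.50 in aged 1 and 0.70 in aged 2, a difference of 1.19 ± 0.36 (limma adjusted p = 0.395). Id2 differed by 0.98 ± 0.45 (0.53 to 1.42 with 1 array left out) and Id3 by 0.90 ± 0.39. Twist1, a bHLH repressor of MyoD activity, stood at -0.46 ± 0.37, and Bhlhe40, a bHLH repressor better known from the circadian clock, at 0.64 ± 0.51 (0.14 to 1.13 with 1 array left out).

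Among 20 measured genes that act upstream of the family, 8 were higher and 12 lower, with a median of -0.23, and -0.03 without young replicate 1. At an unadjusted p under 0.05, 1 was higher and 1 lower, against 2.85% and 6.19% of all genes, and the lower count was 3 with young replicate 1 left out and 4 with aged replicate 2 left out. Pax7, which marks satellite cells and activates Myf5, stood at -1.39 in young 1, -1.24 in young 2, 1.08 in aged 1 and 0.90 in aged 2. Like Myf5, it was low in both young and high in both aged pools, with a difference of 2.31 ± 0.36 (limma adjusted p = 0.150). The 2 probe sets of Pax7 were both higher but unequal, at 1.10 and 3.51. Pax3, a relative of Pax7, differed by -0.10 ± 0.36. Tbx1, a T-box factor of head muscle, stood at -2.28 ± 0.51 (adjusted p = 0.234), and Eya4, a transcriptional cofactor, stood at -0.89 ± 0.40, with 2 of its 4 probe sets higher and 2 lower (-2.94 to 0.72). Gli1, an effector of Hedgehog signalling, stood at -1.29 ± 0.58, and at -2.03 without young replicate 1 and -0.54 without young replicate 2. Dach1 stood at 0.77 ± 0.35, with probe sets from -0.53 to 1.90.

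MEF2, SRF and other cofactors that work with the family counted 10 higher and 12 lower of 22, with a median of -0.28 (-0.18 without young replicate 2). At an unadjusted p under 0.05, 7 were lower and 2 higher, against 6.19% and 2.85% of all genes, and 0 passed after adjustment. The 7 became 5 without either young pool and 3 without aged replicate 1. The 2 became 1 without young 1 or aged 2, 0 without young 2 and 3 without aged 1. Vgll2, a muscle cofactor of TEAD factors, stood at 1.53 in young 1, 1.54 in young 2, -1.74 in aged 1 and -1.53 in aged 2. That pattern, high in both young and low in both aged pools, was that of Myf6, and the difference was -3.16 ± 0.36 (limma adjusted p = 0.0998). Tead1 differed by -2.42 ± 0.44, the chromatin remodelling subunit Smarcd3, which binds MyoD, by -2.51 ± 0.64 and the methyltransferase Setd7 by -1.78 ± 0.48. The 2 counted as higher were Prox1 at 1.14 ± 0.45 and Kdm1a at 1.46 ± 0.58. Tead4 (1.04 ± 0.75) and Mef2a (0.80 ± 0.52) were also higher, with overlapping ages. Mef2c, which cooperates with Myog at muscle promoters, differed by -1.65 ± 0.39 with all 5 of its probe sets lower, while Mef2d stood at -0.23 ± 0.36 with 2 of its 3 probe sets higher.

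Genes switched on by the family at differentiation were lower in 19 of 25 cases, where 46.2% of all genes were lower, with a median of -0.88 (-0.51 without young replicate 1). At an unadjusted p under 0.05, 9 were lower and 0 higher, against 6.19% and 2.85% of all genes, and 0 passed after adjustment. Actc1, the cardiac alpha-actin also made in immature muscle, differed by -5.36 ± 0.56 (limma adjusted p = 0.0998). The thin filament protein Lmod3 differed by -3.07 ± 0.51, the slow troponins Tnnc1 and Tnnt1 by -2.35 ± 0.42 and -2.61 ± 0.49, and the myosin light chain Myl1 by -2.10 ± 0.37. Lmod3, Tnnc1, Tnnt1 and Myl1 are sarcomere genes that mature fibres also express. Developmental isoforms of the list were lower too. The embryonic myosin Myh3 stood at -1.92 ± 0.87 (-3.07 to -0.77 with 1 array left out) and the perinatal myosin Myh8 at -1.22 ± 0.38. Tnnt2 stood at -2.09 ± 0.66, with probe sets from -3.84 to 0.23. Mymk, needed for myoblast fusion, stood at 0.37 ± 0.38, and the cell cycle inhibitor Cdkn1a, a target of MyoD, at -0.46 ± 0.36. Of 11 acetylcholine receptor and synapse genes, 6 were higher and 5 lower and 0 had an unadjusted p under 0.05, against 9.04% of all genes. Their median was 0.24, and -0.15 without aged replicate 2. The lowest p-values belonged to Agrn (-1.07 ± 0.49), the adult receptor subunit Chrne (-1.04 ± 0.55), the kinase Musk (0.83 ± 0.45), the fetal subunit Chrng (0.61 ± 0.36) and Chrnb1 (-0.42 ± 0.41), while Chrna1 stood at -0.49 ± 0.59. With 1 array left out Agrn ran from -1.54 to -0.61, Chrne from -1.68 to -0.40 and Musk from 0.41 to 1.24. Chrnb1 ran from -0.75 to -0.08 and Chrna1 from -1.16 to 0.17. None of these genes had a settled size and Chrna1 had no settled direction. Chrng ran more narrowly, from 0.55 to 0.67.

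**Figure D5:**
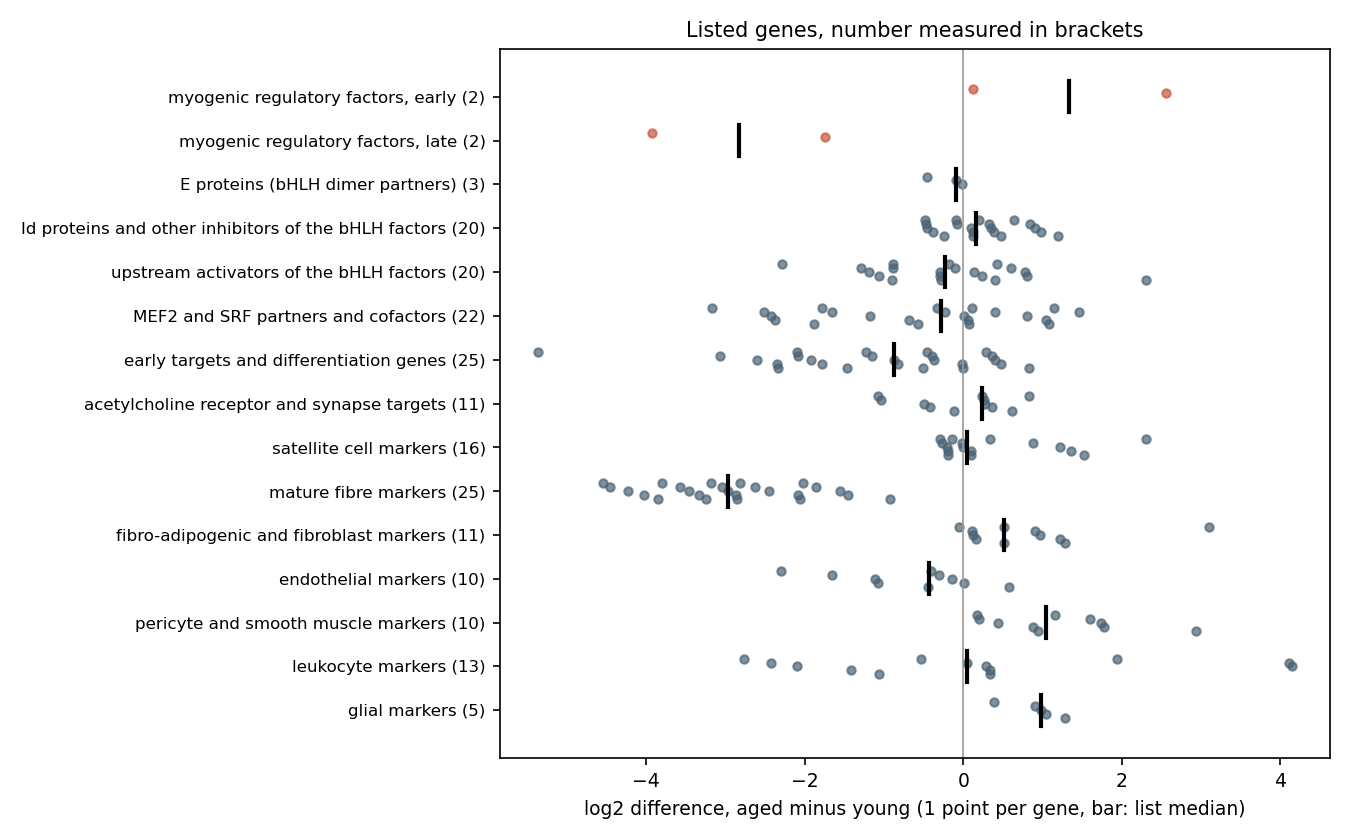
Log2 difference, aged minus young, of every measured gene of each list (1 point per gene, black bar for the list median, the number measured in brackets), with the MyoD family in red. The median of the mature fibre markers is -2.97, beside which stand the late factors at -1.74 and -3.92, and those of the satellite cell markers and the E proteins are 0.04 and -0.09.

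Markers of mature fibres, where Myf6 is most abundant, moved beside the late factors. All 25 were lower in aged cells, where 46.2% of all genes were lower, with a median difference of -2.97. Without aged 1 or without aged 2, 24 of the 25 were lower. Of the 25, 23 were lower and 0 higher at an unadjusted p under 0.05, against 6.19% and 2.85% of all genes, and 0 passed after adjustment. As this list too was chosen with earlier results of these data known, the count is a description. The median relative value of the 25 markers was 1.28 in young 1, 1.43 in young 2, -1.66 in aged 1 and -1.38 in aged 2. The young pools stood close together in this median over 25 genes, though single markers could part more. Myh7 stood at 1.08 in young 1 and 2.32 in young 2. Ryr1, the calcium release channel, differed by -4.45 ± 0.42, the Z-disc protein Myoz1 by -4.55 ± 0.49, Neb by -4.03 ± 0.41, Eno3 by -4.23 ± 0.53 and Actn3 by -2.97 ± 0.38. Acta1, the skeletal actin, differed by -2.87 ± 0.38 and the creatine kinase Ckm by -3.57 ± 0.71. The part of fibre RNA in the differences of Myf6, Myog, their cofactors and their targets was not tested.

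Satellite cell markers showed no common direction, with 8 of 16 higher and a median of 0.04 (0.42 without young replicate 1). Of the 16, 1 (Pax7) was higher and 0 lower at an unadjusted p under 0.05, against 2.85% and 6.19% of all genes. Sdc4, the sorted protein, stood at -0.18 in young 1, -1.47 in young 2, 0.38 in aged 1 and 0.41 in aged 2, a difference of 1.22 ± 0.53 (limma adjusted p = 0.593; 0.57 to 1.87 with 1 array left out). Young 2, the pool with the highest Myog, was also the lowest in Sdc4, a match of single genes on 1 array that was not tested. Chodl stood at 1.36 ± 0.70 (0.65 to 2.07 with 1 array left out) and Megf10 at 1.52 ± 0.90 (0.17 without aged replicate 1, up to 2.87), both with overlapping ages, and Notch3, which is also a pericyte gene, at 0.88 ± 0.38.

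Markers of other cells also differed between the ages, and their part in the results on the MyoD family was not tested. Pericyte and smooth muscle markers were higher in 10 of 10 cases, against 53.8% of all genes (median 1.05, 0.77 to 1.35 with 1 array left out). Without young 2, aged 1 or aged 2, 9 of 10 were higher. Of the 10, 3 were higher and 0 lower at an unadjusted p under 0.05, against 2.85% and 6.19% of all genes. They were Rgs5 at 2.93 ± 0.58, Higd1b at 1.74 ± 0.51 and Kcnj8 at 1.78 ± 0.69 (0.91 to 2.65 with 1 array left out). Cspg4 stood at 0.94 ± 0.39. Fibro-adipogenic markers were higher in 10 of 11 cases (median 0.52), 1 of them at an unadjusted p under 0.05, against the same shares of all genes. Mgp led at 3.10 ± 0.94 (1.66 without aged replicate 1, up to 4.53), with Dcn at 0.90 ± 0.39. Without young replicate 1 the median was 0.32, with 8 of 11 higher. Glial markers were higher in 5 of 5 cases (median 0.98), and in 4 of 5 without young 1 or without aged 2. Sox10 stood at 1.04 ± 0.42 (0.68 to 1.41 with 1 array left out). Endothelial markers were lower in 8 of 10 cases, against 46.2% of all genes (median -0.43). Egfl7 stood at -1.08 ± 0.38 and Tie1 at -2.30 ± 0.89 (-3.63 to -0.96 with 1 array left out). The median of the endothelial markers was -0.77 without young replicate 2, and 6 of 10 were lower without aged replicate 2. Leukocyte markers split, 7 higher and 6 lower of 13 with a median of 0.05 that turned to -0.04 and -0.02 without young 1 and young 2 and was 0.30 without aged 2. They ran from Cd3g at 4.15 ± 0.47 and Cd3d at 4.11 ± 0.50 to S100a8 at -2.77 ± 0.50, Adgre1 at -2.42 ± 0.36 and C1qa at -2.09 ± 0.50.

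For each factor the 5 genes closest in pattern were named by the root mean square difference over the 4 arrays, after each gene was centred on its mean. With 4 arrays many genes lie close by, so this is a description without a test. Closest to Myf6 were the homeobox gene Hoxd9 (0.0703 log2 units), the fibre gene Neb (0.143), Aamdc (0.150), Tmem126a (0.154) and the T-box factor Tbx15 (0.158). Myog lay closest to the muscle methyltransferase Mettl21e (0.151), Magef1 (0.178), Dck (0.181), Mad2l1bp (0.190) and Tmem267 (0.204), all high in young 2. Nearest to Myf5 were Birc2 (0.112), Ptpra (0.241), Fat1 (0.265), Snhg3 (0.273) and Alas2 (0.296), all highest in aged 2. The genes nearest to Myod1, Cant1 (0.0230), Gm4432 (0.0247), 9530068E07Rik (0.0278), 9830166K06Rik (0.0381) and Rad51d (0.0384), shared its small differences. The Myod1 pattern used for this was the mean of probe sets that disagreed in sign (-0.31 and 0.54). Within the family, Myod1 and Myog lay 1.19 apart, Myf5 and Myod1 1.25, Myog and Myf6 1.35, Myod1 and Myf6 2.07, Myf5 and Myog 2.30 and Myf5 and Myf6 3.32. Such a distance also depends on how far each gene moved. The root mean square of a gene's own centred values was 0.338 for Myod1, 1.11 for Myog, 1.42 for Myf5 and 1.97 for Myf6. Myod1 and Myog lay farther apart than Myog's own 1.11, so being the nearest pair does not show a shared pattern. The distances within the family are not set against those above. The closest of all genes is bound to lie nearer than the closest of a few relatives.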

How the data were processed

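RNA of each pool went through 2 rounds of linear T7 amplification and biotin labelling for an Affymetrix array, per the labels' protocols. The table the authors deposited holds 45101 probe sets, read here as log2 values centred on each probe set's median. How background was corrected, probes summarised and arrays normalized is not given in the sources used here. Symbols came from the platform annotation, updated by Entrez ID (34741 probe sets matched). The 932 probe sets with several symbols, 9160 with none and 64 controls stayed out of genes. Probe sets of a gene were averaged.

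The age effect was fitted in R 4.3.3 by limma 3.58.1 (eBayes without trend, two-sided, 2 residual and 3.56 prior degrees of freedom), adjusted by Benjamini-Hochberg over 18193 genes, and over 45037 probe sets in a second fit. An exact permutation test of 2 against 2 cannot go below p = 0.333 and was not used. SE and p-values rest on the spread between a gene's pools after limma drew it towards the spread over all genes. Members and gene lists were chosen with earlier results of these data known. Named genes were the members, the up to 5 lowest p-values of each list, a short list given by name, 3 neighbours on each side and the 5 nearest patterns, and from these the marker lists are shown in part. Xist was named from earlier results. Prox1, Kdm1a, Tead4, Mef2a, Myh3, Myh8, Tnnt2 and Myh7 were named outside this rule. Figures used matplotlib 3.10.9.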

Additional observations from a re-analysis of the deposited data

How the results depend on the processing

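Myf5, Myog, Myf6 and early minus late kept their direction under quantile normalization, array medians set to 0, the probe set with the largest SD, no _x_at or _s_at probe sets, a replicate block and each array left out. Myod1 turned to -0.31 without _x_at and _s_at probe sets and with single probe sets as the unit (1418420_at). Leaving out 1 array gave 1.69 to 3.42 for Myf5, -0.35 to 0.58 for Myod1, -2.69 to -0.79 for Myog, -4.10 to -3.74 for Myf6 and 3.53 to 4.80 for early minus late, and 0 genes past the threshold each time. A variance trend moved Myf6 past it (-3.92, adjusted p = 0.00523) and the count of genes from 0 to 221; the cause was not tested. Over its other alternatives Myf6 had a limma adjusted p of 0.0928 to 0.671. With the replicate number as a block the differences were 2.56, 0.12, -1.74 and -3.92 for Myf5, Myod1, Myog and Myf6, early minus late was 4.17, and 0 genes passed (1768 at an unadjusted p under 0.05, against 1645 in limma without the block). Differences between pools correlated at 0.138 over genes between the ages, and the samples share only a number. Refits of the gene lists without each array and under both scalings were added after seeing the data. No list median changed sign under either scaling, and the list counts at an unadjusted p under 0.05 moved by at most 1: under both, higher cofactors went from 2 to 1 and lower leukocyte markers from 4 to 5, and with array medians set to 0, pericyte markers from 3 to 2, glial markers from 1 to 0, lower endothelial markers from 2 to 1 and lower differentiation genes from 9 to 10. With 2 pools per age, the number of arrays limits every value, and a missed threshold does not show equal expression.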
